A study of Homo sapiens with 6 samples.

Results

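The genes described are 10 genes of the bone morphogenetic protein (BMP) pathway, measured by RNA-seq in DLD1 cells. They are the ligand genes *BMP2*, *BMP4* and *BMP7*, the receptor genes *BMPR1A* and *BMPR2*, the signal transducer gene *SMAD1*, the inhibitor gene *SMAD6*, and the output genes *ID1*, *ID2* and *ID3*. They were chosen by name from pathway knowledge, with earlier results of these data known. Each was found by its Ensembl identifier among the 58884 genes of the deposited table. DLD1 is a human colorectal cancer cell line that carries a helical domain mutation of *PIK3CA*. The 3 parental libraries came from unedited DLD1 cells, and the 3 p85βKR-AA libraries from DLD1 cells in which K477A and R478A were introduced by CRISPR/Cas9 into *PIK3R2*, the gene for the p85β regulatory subunit of PI3K. No drug or time course was part of the design, and the comparison asks how RNA levels differ when these basic residues of p85β are replaced. The study describes a pair of mutant clones derived independently, but the labels do not say which clone gave which library, or whether libraries came from separate cultures. The p-values therefore measure the spread between these libraries, which may be technical. For 2 of the p85βKR-AA libraries the source name gives a different second residue, while the title and genotype of all 3 give R478A.

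BMPs are secreted dimers of the TGF-β superfamily. They bring together type II receptors such as BMPR2 and type I receptors such as BMPR1A, which phosphorylate SMAD1, SMAD5 and SMAD9. These join SMAD4, enter the nucleus and raise transcription of the *ID* genes, whose products hold E proteins away from DNA, and of *SMAD6*, whose product inhibits the pathway. In the colon, BMP signals favour differentiation of cells that leave the crypt base, where secreted antagonists such as noggin keep the signal low, and inherited loss of *BMPR1A* causes juvenile polyposis.

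The sequences before the transcription starts of 5 of the genes are shown because the *ID* genes and *SMAD6* are transcribed in response to SMAD proteins and *BMPR2* had the largest increase among the 10 with TMM scaling and with library totals, though not in a fit with offsets that take out, library by library, the relation of counts with gene length and GC content. Each run is the 250 bases that precede the RefSeq start, on the gene's own strand (GRCh38.p14). Capitals mark 3 motifs known for SMAD proteins, searched on both strands. They are GGCGCC, the palindrome GTCTAGAC, and GTCTG, which reads CAGAC on the other strand. None of the 3 overlapped another in these runs.
ID1: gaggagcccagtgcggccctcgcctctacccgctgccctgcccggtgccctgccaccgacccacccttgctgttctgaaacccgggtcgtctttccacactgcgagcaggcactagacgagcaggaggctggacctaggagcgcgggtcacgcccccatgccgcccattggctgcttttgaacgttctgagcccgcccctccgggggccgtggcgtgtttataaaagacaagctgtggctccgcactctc
ID2: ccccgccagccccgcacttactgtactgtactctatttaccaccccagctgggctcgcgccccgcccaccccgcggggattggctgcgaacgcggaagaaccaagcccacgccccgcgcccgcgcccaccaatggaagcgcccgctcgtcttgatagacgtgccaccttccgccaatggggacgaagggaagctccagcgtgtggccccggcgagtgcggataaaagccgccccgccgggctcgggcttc
ID3: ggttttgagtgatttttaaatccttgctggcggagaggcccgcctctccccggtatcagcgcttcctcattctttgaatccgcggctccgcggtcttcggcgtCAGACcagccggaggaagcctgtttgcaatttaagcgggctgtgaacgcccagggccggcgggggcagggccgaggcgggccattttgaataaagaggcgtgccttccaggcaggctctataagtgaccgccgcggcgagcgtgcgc
SMAD6: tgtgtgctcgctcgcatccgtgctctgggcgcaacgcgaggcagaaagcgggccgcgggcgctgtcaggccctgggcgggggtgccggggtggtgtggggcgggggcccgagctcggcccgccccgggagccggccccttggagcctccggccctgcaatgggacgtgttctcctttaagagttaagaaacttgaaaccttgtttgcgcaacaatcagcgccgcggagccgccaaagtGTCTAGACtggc
BMPR2: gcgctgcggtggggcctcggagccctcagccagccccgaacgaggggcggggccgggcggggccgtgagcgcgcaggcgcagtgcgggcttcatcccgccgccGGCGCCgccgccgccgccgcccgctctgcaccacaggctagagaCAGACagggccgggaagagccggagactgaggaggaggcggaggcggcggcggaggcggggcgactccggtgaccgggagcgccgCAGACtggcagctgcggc
The runs lie at chr20:31605039-31605288 (plus strand), chr2:8681806-8682055 (plus), chr1:23559502-23559751 (minus), chr15:66701986-66702235 (plus) and chr2:202376077-202376326 (plus), in the order shown. Of the 10 genes, 8 matched an entry of the promoter table (*BMP2* and *BMP7* did not). GTCTAGAC, found in 0.176% of the 27305 promoters in the table, was present in *SMAD6*, 12 bases before the start. GGCGCC was present in 2 of the 8 genes, *BMP4* and *BMPR2*, against 16.1% of all promoters. GTCTG was present in 3 of the 8 genes, *BMP4*, *BMPR2* and *ID3*, against 37.8% of all promoters. No motif was present in the runs of *ID1* and *ID2*, which says only that these letters are not in these windows.

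The counts of a library summed to between 20301932 and 20873475 in parental cells and between 20301396 and 26712816 in p85βKR-AA cells. Levels are given as CPM, counts relative to the library size after TMM scaling, in which 3 counts correspond to between 0.0818 and 0.218 CPM, a limit that covers counting error only. The edited bases cannot be read from counts, and *PIK3R2* itself differed by less than the threshold, with a log2 fold change of -0.93 (SE 0.42, adjusted p = 0.0558) and overlapping groups. A readthrough gene (ENSG00000268173) covers *PIK3R2* on the same strand and took a mean of 2666 counts in parental and 1583 in p85βKR-AA libraries, so that this level is uncertain. The libraries of the conditions stood far apart in their cell type markers. Of 15 colon epithelium markers, 13 exceeded 1 CPM in every parental library and 12 in every p85βKR-AA library, but their summed level was 57395 to 79427 CPM in the former and 9094 to 10552 CPM in the latter, and *CDX1* had at most 3 counts in any library. The keratin genes *KRT8*, *KRT18* and *KRT19* made up most of these sums. Of the 14 markers tested 6 were called lower, and 4 (*CEACAM5*, *AGR2*, *CDH17* and *CDH1*) were called higher, against 17.6% and 28.6% of all genes tested. Of 15 mesenchymal markers, 7 exceeded 1 CPM in every parental and 11 in every p85βKR-AA library, with sums of 236 to 302 and 6456 to 7380 CPM, while *PDGFRA* and *COL1A2* were at 0 in all p85βKR-AA libraries. *FN1* (4992 CPM) and *VIM* (1772 CPM) made up most of the latter sum. Of the 11 tested 5 were called higher and 2 (*COL6A2* and *TAGLN*) lower, against the same shares of all genes. Of the 5, *COL3A1*, *LUM* and *DCN* had 0 counts in all parental libraries. They passed the filter on low counts only through the p85βKR-AA libraries, so that this count says little. Summed neuron markers were at 522 to 610 CPM in parental and 344 to 366 CPM in p85βKR-AA libraries (*DCX*, *ELAVL4* and *INA* at 0 throughout). *TUBB3* carried that difference, with 561 and 211 CPM. Of 12 neuron markers 6 were tested and 4 were called higher, against 28.6% of all genes tested. Among these, *NEFL* had 0 counts in parental and 131.5 CPM in p85βKR-AA libraries. *NEFL*, *NEFM* and *GAP43*, at 0 counts in all parental libraries, passed the filter only through the p85βKR-AA libraries. The number called was thus largely set by the filter. Endothelial markers were at 1.09 to 3.10 and 1.70 to 2.04 CPM, and blood markers at 4.75 to 6.85 and 4.18 to 5.29 CPM. *RPS4Y1*, a Y-linked ribosomal protein gene, had 0 counts in the parental libraries and 175 ± 11.2 CPM (SD, n = 3) in the p85βKR-AA libraries of this cell line. Whether both sets of libraries came from cells of the same origin was not tested, so that the values below are differences between these libraries, in which the edit and any difference in origin cannot be told apart. The part of the marker differences in the results on BMP genes was not tested. In RNA from bulk cells, fewer cells of a type and less RNA per cell cannot be told apart.

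Compared with the parental cells, the receptor genes *BMPR2* and *BMPR1A* and the transducer gene *SMAD1* were higher in p85βKR-AA cells, and *ID3* and *BMP7* were lower. A gene was called where it differed by 3-fold or more with an adjusted p under 0.01 (edgeR quasi-likelihood test, Benjamini-Hochberg adjustment over the 16059 genes tested), the thresholds of the study's methods. All 10 genes passed the filter on low counts. Of them, 3 were called higher, where 28.6% of all genes tested were, and 2 were called lower, where 17.6% were. The other 5 were not called, and 46.2% of all genes were called in either direction. The groups did not overlap for 8 of the 10 genes, against 83.4% of all genes tested. These shares are near the background, and the median log2 fold change of the 10 was 0.11, against 0.32 for all genes. What follows is therefore about single genes and not about the 10 as a set. The plot of levels by library shows both groups for each gene.

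Among the ligands, *BMP4* (ENSG00000125378, chromosome 14, 54416454 to 54425479, minus strand, GRCh37) was by far the most abundant. Its level was 394, 307 and 417 CPM in parental replicates 1, 2 and 3 and 218, 208 and 223 CPM in p85βKR-AA replicates 1, 2 and 3. All p85βKR-AA libraries lay below all parental libraries, and the difference was under the fold threshold (log2 fold change -0.78, SE 0.14, adjusted p = 1.66e-04). *BMP2* (ENSG00000125845, chromosome 20, 6748333 to 6760893, plus strand), which encodes a close relative of BMP4, had 4.85, 3.06 and 4.81 CPM in parental and 11.5, 11.5 and 11.2 CPM in p85βKR-AA libraries. It was higher in every p85βKR-AA library with a log2 fold change of 1.42 (SE 0.22, adjusted p = 4.92e-05), a 2.68-fold difference that also missed the fold threshold. *BMP7* (ENSG00000101144, chromosome 20, 55743809 to 55841697, minus strand), a ligand of another subgroup, had 7.90, 6.26 and 7.96 CPM in parental and 2.16, 1.95 and 3.28 CPM in p85βKR-AA libraries. It was lower in every p85βKR-AA library and lay at the threshold, 3.01-fold lower (log2 fold change -1.59, SE 0.25, adjusted p = 6.30e-05). Without 1 of 4 libraries (parental replicate 1 or 3, or p85βKR-AA replicate 1 or 2) the call was lost, with log2 fold changes of -1.55, -1.57, -1.49 and -1.44, so that 2 of the 6 fits that leave out a library made it. It was also lost without the filter (-1.55), with at least 10 counts in every library (-1.39), with library totals (-0.67) and with offsets for length and GC content (-1.07).

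As the ratio of a pair of genes within a library does not depend on how libraries are scaled, 7 pairs of genes of like role were compared in this way, chosen after their levels were seen. The *BMP2* to *BMP4* ratio of counts was 0.0123, 0.00995 and 0.0116 in parental and 0.0527, 0.0555 and 0.0502 in p85βKR-AA libraries, 4.68-fold higher in the latter. The *BMP7* to *BMP4* ratio was 0.0198 ± 0.000666 in parental and 0.0113 ± 0.00295 in p85βKR-AA libraries (SD, n = 3), lower in the latter. None of the 7 ratios overlapped between the groups. As the pairs were chosen by their levels they are a description with no test, and 83.4% of single genes did not overlap either. Ratios are free of the scaling, but the genes of a pair can differ in length and GC content. With the offsets, the difference in log2 fold change between *BMP2* and *BMP4* went from 2.21 to 1.32, and that between *BMP7* and *BMP4* from -0.80 to -1.32.

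The receptors rose from low levels. *BMPR2* (ENSG00000204217, chromosome 2, 203241050 to 203432474, plus strand), the main type II receptor for BMPs, had 2.46, 1.46 and 2.098 CPM in parental and 21.2, 22.4 and 17.0 CPM in p85βKR-AA libraries. This was a 10-fold increase, with groups far apart (log2 fold change 3.32, SE 0.23, adjusted p = 4.73e-08). The parental values rest on 37, 20 and 34 counts. *BMPR1A* (ENSG00000107779, chromosome 10, 88516353 to 88692582, plus strand), its type I partner, had 2.64, 4.01 and 3.84 CPM in parental and 20.02, 19.8 and 16.3 CPM in p85βKR-AA libraries, a 5.35-fold increase (log2 fold change 2.42, SE 0.21, adjusted p = 3.31e-07). Both were called in each of the 6 fits that leave out a library, but neither with offsets for length and GC content, where *BMPR2* was at 0.61 and *BMPR1A* at 0.43. *BMPR2* had on average 0.614 ± 0.290 counts for each count of *BMPR1A* in parental and 1.08 ± 0.0464 in p85βKR-AA libraries (SD, n = 3). The difference in log2 fold change between them went from 0.90 to 0.18 with the offsets.

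*SMAD1* (ENSG00000170365, chromosome 4, 146402346 to 146480328, plus strand), which carries the signal of the activated receptors, had 2.79, 2.04 and 2.53 CPM in parental and 8.76, 7.76 and 6.81 CPM in p85βKR-AA libraries. It was higher in every p85βKR-AA library, 3.16-fold (log2 fold change 1.66, SE 0.23, adjusted p = 1.78e-05). This lies just above the threshold, and the call was lost without parental replicate 2 (1.52), without p85βKR-AA replicate 1 (1.58), with DESeq2 (1.54) and with the length and GC offsets (0.51, adjusted p = 0.0472). *SMAD6* (ENSG00000137834, chromosome 15, 66994574 to 67075187, plus strand), the inhibitory SMAD of the BMP branch, had 9.37, 4.95 and 10.3 CPM in parental and 10.1, 11.8 and 11.8 CPM in p85βKR-AA libraries. The groups overlapped, and its log2 fold change of 0.44 (SE 0.25, adjusted p = 0.112) was within the spread between replicates. Parental replicate 2 was the lowest by a wide margin, and without it the log2 fold change was 0.16. The *SMAD1* to *SMAD6* ratio was 0.318 ± 0.0850 in parental and 0.702 ± 0.150 in p85βKR-AA libraries. With the offsets the difference in log2 fold change between these genes turned from 1.22 to -0.80. *SMAD1* has 3002 bases and 39.2% GC, and *SMAD6* has 3828 bases and 58.9% GC.

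The *ID* genes, which encode helix-loop-helix proteins without a DNA-binding region, did not share 1 outcome: *ID3* was called lower, *ID1* was lower by less than 3-fold and *ID2* overlapped between the groups. *ID3* (ENSG00000117318, chromosome 1, 23884417 to 23885992, minus strand) had 443, 488 and 378 CPM in parental and 47.4, 48.2 and 53.2 CPM in p85βKR-AA libraries. This 8.80-fold decrease was the largest of the 10 genes, and the groups were far apart (log2 fold change -3.14, SE 0.14, adjusted p = 3.48e-09). With the length and GC offsets it was -1.21 and no longer called. *ID1* (ENSG00000125968, chromosome 20, 30193086 to 30194318, plus strand) had 408, 440 and 458 CPM in parental and 200, 178 and 149 CPM in p85βKR-AA libraries. All p85βKR-AA libraries were lower, but the 2.47-fold difference was under the fold threshold (log2 fold change -1.31, SE 0.14, adjusted p = 1.69e-06), and with the offsets its direction turned (0.79, adjusted p = 8.48e-04). *ID2* (ENSG00000115738, chromosome 2, 8818975 to 8824591, plus strand) had 33.5, 42.4 and 39.4 CPM in parental and 34.6, 34.4 and 30.0 CPM in p85βKR-AA libraries. These groups overlapped, and the log2 fold change of -0.22 (SE 0.15, adjusted p = 0.189) was within the spread between replicates. The *ID2* antisense gene took at most 10 counts in a library, and whether counting used strand is not given in the sources used here.

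Parental cells held *ID3* and *ID1* in nearly equal counts, with ratios of 1.09, 1.11 and 0.827. In p85βKR-AA cells the ratio was 0.236, 0.271 and 0.356, which is 3.50-fold lower on average. The ratio of *ID3* to *ID2* was 11.5 ± 1.81 in parental and 1.51 ± 0.226 in p85βKR-AA cells, and that of *ID2* to *ID1* was 0.0881 ± 0.00740 and 0.189 ± 0.0145 (SD, n = 3). The difference in log2 fold change between *ID3* and *ID1* was -1.83 with TMM scaling, -1.82 with library totals and -2.004 with the offsets. That between *ID3* and *ID2* was -2.92, -2.91 and -2.64 in the same order, and that between *ID2* and *ID1* 1.09, 1.09 and 0.64. The plot of within-library ratios shows these and the other pairs.

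Levels of different genes were compared per kilobase of the length in the deposited table. In parental cells *ID3* (459 ± 57.9 CPM per kilobase, SD, n = 3) and *ID1* (443 ± 25.7) led and did not differ beyond their spread. They were followed by *BMP4* (193 ± 29.9) and *ID2* (61.7 ± 7.27), which were apart from their neighbours. Much lower came *SMAD6* (2.14 ± 0.746), *BMP7* (1.83 ± 0.239), *BMP2* (1.196 ± 0.289), *SMAD1* (0.817 ± 0.127) and *BMPR1A* (0.621 ± 0.133). The range of *SMAD6* overlapped those of *BMP7* and *BMP2*, which were apart from each other. *BMP2*, *SMAD1* and *BMPR1A* each overlapped the next, and *BMPR2* (0.175 ± 0.0443) was the lowest. In p85βKR-AA cells the order was *ID1* (179 ± 25.98), *BMP4* (112 ± 3.99), then *ID2* (52.9 ± 4.21) and *ID3* (52.2 ± 3.33), whose ranges overlapped. The range of *BMPR1A* (3.32 ± 0.375) overlapped those of *BMP2* (3.22 ± 0.0540), *SMAD6* (2.93 ± 0.256) and *SMAD1* (2.59 ± 0.324). *SMAD6* and *SMAD1* overlapped each other, and both lay below *BMP2*. *BMPR2* (1.76 ± 0.248) and *BMP7* (0.612 ± 0.178) were each apart from their neighbours. Thus *ID3* was level with *ID1* in parental cells and with *ID2* in p85βKR-AA cells, and *BMP7* took the last place from *BMPR2*. These levels carry no offsets for length and GC content, and the fold change over all genes went with gene length. The part of that relation in these moves was not tested.

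The direction of several of these genes moved with the scaling and with the length and GC offsets. Scaling by library totals in place of TMM shifted the median log2 fold change of all genes by 0.92, and the share of higher genes among those called from 61.9% to 87.9%. With it *BMP4* (0.13) and *ID2* (0.71) turned from negative to positive, *ID1* was at -0.38 and *BMP7* at -0.67 without a call, and *BMP2* was called higher (2.34). *ID3* (-2.20), *BMPR1A* (3.34), *BMPR2* (4.24) and *SMAD1* (2.58) kept their calls. With library totals 43.9% of all genes were called higher and 6.06% lower. Gene length went with the fold change over all genes tested, as the plot against length shows. The median log2 fold change was -1.12 over the 1593 genes of at most 1000 bases, of which 39.4% were called lower, and 2.41 over the 1012 genes longer than 8000 bases, of which 65.4% were called higher. *ID1* (983 bases), *ID2* (623 bases) and *ID3* (950 bases) belong to the shortest class and *BMPR2* (11461 bases) to the longest. *BMPR1A* (5632 bases) belongs to the class of 4000 to 8000 bases, with a median of 1.45 and 47.1% called higher. *BMP7* (4021 bases) was lower in that same class, where 4.51% of genes were called lower.

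In a fit with offsets per library for the length and GC content of genes, 0 of the 10 genes were called by edgeR. DESeq2 without offsets called 2 of the 10 higher and 2 lower, and 4202 and 3094 of the 16059 genes tested. In the fit with offsets 17.8% of all 15902 genes tested were called higher and 6.55% lower. Thus 73.1% of the called genes were higher there, and the median gene was at 0.27. All 10 genes had an unadjusted p under 0.05 in the fit with offsets, and 7 an adjusted p under 0.01. The shares of all genes under these limits were not computed, so these counts say nothing about the 10 as a set. *ID3* remained lower at -1.21 (SE 0.085, adjusted p = 3.29e-07) and *BMP7* at -1.07 (SE 0.19, adjusted p = 4.41e-04). *BMP2* was at 1.58 (adjusted p = 6.86e-06), short of the fold threshold. *BMPR2* (0.61), *BMPR1A* (0.43) and *SMAD1* (0.51) were far smaller than without the offsets. *ID1* (0.79), *ID2* (1.43) and *BMP4* (0.26) turned positive, and *SMAD6* was at 1.303. The offsets take out every relation with length and GC content together, so that the part of each cannot be told apart. No fit with length alone was run, and the source of the relation with length was not tested. *ID3* and *BMP7* were the 2 of the 10 genes below 0 under all 3 scalings, and *BMP2*, *BMPR1A*, *BMPR2*, *SMAD1* and *SMAD6* were above 0 under all 3.

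**Figure D1:**
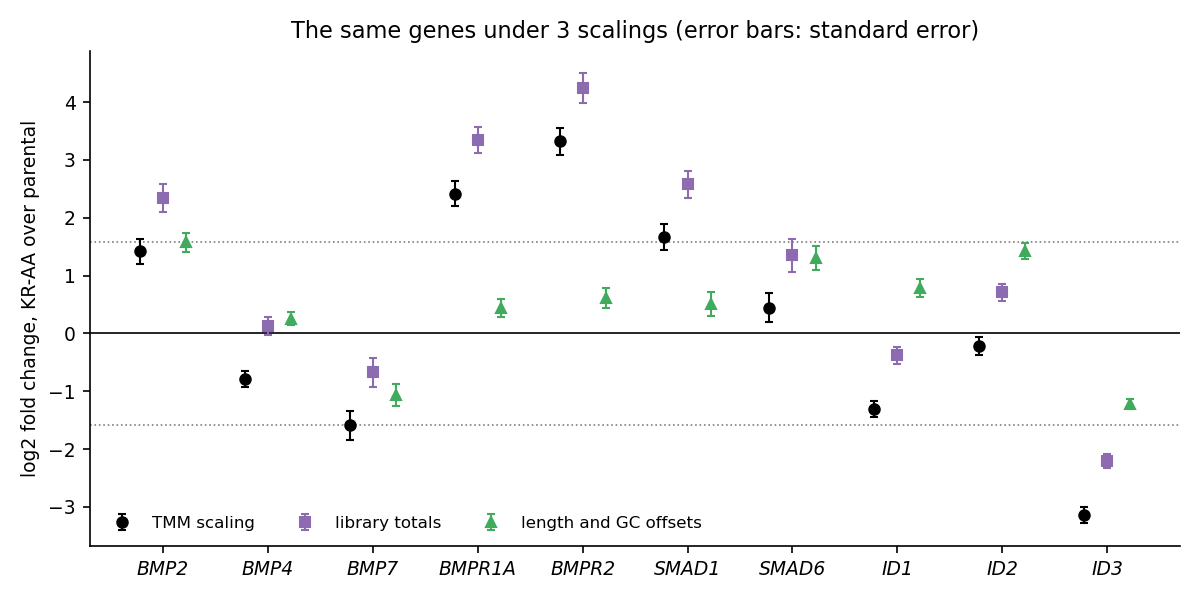
Log2 fold change (p85βKR-AA over parental) of the 10 genes under TMM scaling (black), library totals (purple) and length and GC offsets (green), with error bars of 1 standard error and dotted lines at 3-fold. *ID3* is below 0 under all 3, *BMPR2* drops from 3.32 to 0.61 with the offsets, and *BMP4*, *ID1* and *ID2* change sign.

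The other genes of the pathway were read from 7 lists by role, which with the 10 hold 63 genes. The lists were also chosen with earlier results of these data known, so that their shares are a description. Of the 63 genes 47 were tested, 21 (44.7%) were called higher and 7 (14.9%) lower, against 28.6% and 17.6% of all genes. The median log2 fold change was 1.41 against 0.32 for all genes. With the length and GC offsets 11 were called higher and 1 lower, against 17.8% and 6.55% of all genes, and the median was 0.43 against 0.27. Some of the 21, among them *BMP5*, *BMP6*, *BMPER*, *FST*, *ENG*, *SMAD9* and *HEY1*, passed the filter on low counts only through p85βKR-AA libraries. Such genes could hardly be called lower, and the filter was the same for all genes tested. The plot of fold changes by role shows the lists.

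Of the 14 ligand genes 7 were tested, 2 were called higher and 1, *BMP7*, lower, shares of 28.6% and 14.3% that are near those of all genes (28.6% and 17.6%). *BMP6* rose from 0.647 ± 0.394 to 7.54 ± 0.505 CPM (SD, n = 3; log2 fold change 3.50, adjusted p = 8.50e-07). *BMP5* had 2 counts in the parental libraries together and 2.44 ± 0.661 CPM in p85βKR-AA cells, a ratio of 56.2 with a 95% exact counting interval of 15.4 to 467. Both were also called with the length and GC offsets. *BMP8A* and *BMP8B* are near-identical copies, and their levels are uncertain.

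Of the 7 receptor genes 5 (71.4%) were called higher and 1 (14.3%) lower, against 28.6% and 17.6% of all genes. Their median length was 5388 bases, and 47.1% of all genes of 4000 to 8000 bases were called higher. *BMPR2* and *ACVR2B* (11461 and 11782 bases) belong to the class above 8000 bases, with 65.4% called higher. *ACVR1* (2879 bases) belongs to that of 2000 to 4000 bases, with 23.9%. Their median log2 fold change was 2.17, and 0.28 with the offsets. The type I receptor gene *ACVR1* had 1.33, 1.75 and 1.67 CPM in parental and 15.3, 13.96 and 17.6 CPM in p85βKR-AA libraries (log2 fold change 3.30, SE 0.22, adjusted p = 3.38e-08), and the type II genes *ACVR2A* (2.17) and *ACVR2B* (2.11) rose as well. *ACVRL1*, the type I receptor best known from endothelium, went the other way, from 8.44, 7.65 and 6.11 CPM to 0.928, 0.731 and 0.802 CPM (log2 fold change -3.16, SE 0.25, adjusted p = 1.31e-07). *ACVR1* (2.22) and *ACVRL1* (-2.43) were the only receptor genes called in the fit with offsets, and *ACVR2B* was at -0.040 there. *BMPR1B*, the other type I BMP receptor, had 0 to 7 counts per parental library and was not called (log2 fold change 1.41, adjusted p = 0.0978), but without parental replicate 2 it was called at 3.71. Of 6 co-receptor genes 5 were tested and 2 (40%) were called higher, against 28.6% of all genes. *ENG*, which encodes endoglin, rose from 0.507 ± 0.261 to 18.5 ± 1.00 CPM (log2 fold change 5.16, adjusted p = 9.21e-09). Its parental libraries held 12, 4 and 7 counts. *TGFBR3*, which encodes betaglycan, rose from 1.89 ± 0.379 to 16.8 ± 2.13 CPM (log2 fold change 3.14, adjusted p = 5.84e-08). With the offsets *ENG* (6.63) and *TGFBR3* (1.79) were both called.

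All 4 genes for signal-carrying SMADs were called higher, against 28.6% of all genes. Their median length was 6264 bases, and 47.1% of all genes of 4000 to 8000 bases were called higher. *SMAD4* (8495 bases) belongs to the class above 8000 bases, with 65.4% called higher. *SMAD1* (3002 bases) belongs to that of 2000 to 4000 bases, with 23.9%. With the offsets 0 of 4 were called by edgeR, where 17.8% of all genes were called higher and 6.55% lower. *SMAD5*, which acts beside *SMAD1*, had 1.93, 3.79 and 4.13 CPM in parental and 36.4, 42.9 and 23.9 CPM in p85βKR-AA libraries (log2 fold change 3.39, SE 0.29, adjusted p = 2.73e-07). *SMAD9*, the third of this kind, rose by a log2 fold change of 3.15 from 0.280 ± 0.250 to 2.59 ± 0.297 CPM. Its parental libraries held 1, 3 and 9 counts, and without parental replicate 3 the log2 fold change was 4.13. *SMAD4*, the shared partner, rose from 7.68 ± 0.623 to 31.4 ± 2.18 CPM (log2 fold change 2.04), but was at -0.34 with the offsets.

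Of the 8 intracellular inhibitor genes, all tested, 3 (37.5%) were called higher and 1 (12.5%) lower, against 28.6% and 17.6% of all genes. The ubiquitin ligase genes *SMURF1* (log2 fold change 1.91) and *SMURF2* (1.95) and the corepressor gene *SKIL* (2.53) rose, and none of them was called with the offsets, where *SMURF2* was at -0.048. *BAMBI*, which encodes a pseudoreceptor that blocks type I receptors and is itself induced by BMP, had 55.7, 51.9 and 57.1 CPM in parental and 11.8, 11.6 and 10.97 CPM in p85βKR-AA libraries. This was a 4.80-fold decrease (log2 fold change -2.26, SE 0.14, adjusted p = 2.14e-08), with groups far apart, and it was -1.51 with the offsets and -1.34 with library totals, below the fold threshold in both.

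Of 15 genes for secreted antagonists 9 were tested. Of these 4 (44.4%) were called higher and 2 (22.2%) lower, against 28.6% and 17.6% of all genes. *FST*, which encodes follistatin, had 0 counts in parental cells and 10.96 ± 0.215 CPM in p85βKR-AA cells, at least 50.2-fold higher against 3 counts in the shallowest parental library. *BMPER*, which encodes an extracellular BMP-binding protein, had 2 parental counts, 4.76 ± 0.210 CPM in p85βKR-AA cells and a ratio of 107 (interval 29.6 to 889). *FSTL1*, which encodes a follistatin-like protein, rose from 1.79 ± 0.224 to 87.0 ± 0.222 CPM (log2 fold change 5.59, adjusted p = 1.94e-10). *FST*, *BMPER* and *FSTL1* were also called with the offsets. *NOG*, the gene for noggin, was called with the offsets (1.87) but not without them (0.22, adjusted p = 0.618). It had only 10, 10 and 12 counts in parental and 36, 29 and 13 in p85βKR-AA libraries, and its groups overlapped in CPM. The 2 that fell, named after their values were seen, were *NBL1*, from 601 ± 62.8 to 92.8 ± 6.21 CPM (log2 fold change -2.69), and *CHRD*, the gene for chordin, from 12.0 ± 0.807 to 2.43 ± 0.333 CPM (-2.30). With the offsets neither was called (-0.23 and -0.91).

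Of 13 output genes 11 were tested. Of these 2 (18.2%) were called higher and 3 (27.3%) lower, against 28.6% and 17.6% of all genes. The median log2 fold change was -0.87 against 0.32 for all genes. The 3 lower genes were *ID3*, *BAMBI* and *MSX1*, a homeobox gene induced by BMP. *MSX1* had 55.5, 49.9 and 59.5 CPM in parental and 10.6, 9.19 and 9.91 CPM in p85βKR-AA libraries (log2 fold change -2.47, SE 0.15, adjusted p = 1.77e-08), and was at -0.80 with the offsets and -1.55 with library totals. The 2 higher genes were *SMAD9* and *HEY1*, a repressor gene that rose from 0.274 ± 0.142 to 1.87 ± 0.269 CPM (log2 fold change 2.77, adjusted p = 4.50e-05). With the offsets the median of the list was -0.15, against 0.27 for all genes. *HEY1* was the 1 gene called there, where 17.8% of all genes were called higher and 6.55% lower. *ID4*, the fourth *ID* gene, had 9, 2 and 4 counts in parental and 0, 11 and 3 in p85βKR-AA libraries and was too low to be tested.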

How the data were processed

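RNA was sequenced from 3 parental and 3 p85βKR-AA DLD1 libraries, grouped by the labels. The methods state TRIzol extraction and paired-end reads trimmed by SeqPrep and Sickle. The submitters' processing notes list HISAT2 2.1.0, RSEM 1.3.1, DESeq2 1.24.0 and the build hg18, without their roles, and the annotation behind the counts is not given in the sources used here. The authors deposited expected counts per Ensembl gene, not normalized, and a gene length, with 0 columns of other samples. The design assumed whole counts, so the expected counts were rounded.

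Symbols and positions came from GENCODE release 44 lifted to GRCh37 (56745 genes matched), and promoters from RefSeq. edgeR 4.0.16 in R 4.3.3 was run on all 6 libraries with filterByExpr (minimum 10, total 15), TMM scaling, no covariate and Benjamini-Hochberg adjustment. The code was tested on simulated data. Replicate pairs differed by 4.08 to 35.8 times sampling noise (chi-square per degree of freedom), so none was a copy. Alternatives were DESeq2 1.42.0, library totals, no filter, a minimum of 10 counts in each library, the replicate block (prior degrees of freedom infinite, 8.32 without it), robust moderation, offsets per library for length and GC content (robust spline with 5 degrees of freedom, MASS), an adjusted p under 0.05 without a fold limit, and leaving out each library. The named genes are the 10, *PIK3R2*, up to 4 called genes per role list with the largest change, no overlap and at least 1 CPM, and *BMPR1B*, *SMAD5*, *SMAD4*, *NOG* and *ID4*, of which 1 is not reported here. The members and lists were chosen with earlier results of these data known. Figures were drawn with matplotlib 3.10.9.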

Additional observations from a re-analysis of the deposited data

How the results depend on the processing

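The alternatives were run on the counts of called genes (all genes, the 10 genes, the pathway lists) and on each named gene. Library totals gave 7052 genes higher and 973 lower, 1 of the 10 genes lower and 3 pathway genes lower. Without a filter 1 of the 10 was lower, as were 2993 of the 28759 genes tested. With at least 10 counts in every library 12693 genes were tested. Of these 2898 were higher and 2100 lower, and 1 of the 10 was lower. The length and GC offsets gave 2831 genes higher and 1042 lower, 0 and 0 of the 10, and 11 and 1 pathway genes. With the replicate block and robust moderation added to them, these were 2761 and 1015, 0 and 0, and 11 and 1. An adjusted p under 0.05 with no fold limit gave 7373 genes higher and 5738 lower, with 4 of the 10 and 14 pathway genes lower. Leaving out 1 library gave 4404 to 4783 genes higher and 2774 to 2992 lower, 2 to 3 of the 10 higher and 1 to 2 lower, and 20 to 22 pathway genes higher and 6 to 8 lower. Of the values of single genes under the alternatives, 468 kept their direction and call and 18 changed sign. With the direction kept, 36 lost the call and 8 gained it. *ACVR2B*, *SMAD4* and *SMURF2*, among those that changed sign with the offsets, lost their calls there as well. With library totals *BMP4* turned to 0.13 and *ID2* to 0.71. With the offsets, and with the block added to them, the log2 fold changes that changed sign were 0.26 and 0.27 for *BMP4*, 0.79 and 0.78 for *ID1*, 1.43 and 1.43 for *ID2*, -0.040 and -0.024 for *ACVR2B*, -0.34 and -0.34 for *SMAD4*, -0.048 and -0.050 for *SMURF2*, -0.52 and -0.36 for *BMPR1B*, and 0.33 and 0.20 for *PIK3R2*. The cause was not tested. The deviations of libraries of the same replicate number had correlations of -0.204, 0.175 and -0.0576. Those of unlike number ranged from -0.243 to 0.324. With 3 libraries per condition this cannot tell whether libraries of the same number shared a batch. The replicate block gave 4626 genes higher and 2827 lower, 3 and 2 of the 10, and 21 and 7 pathway genes. Depth limits genes with few or 0 parental counts, such as *BMP5*, *BMPER*, *FST*, *BMPR1B*, *SMAD9* and *NOG*.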

Other observations

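The proteins that ID proteins bind, the E proteins, are encoded by *TCF3*, *TCF4* and *TCF12*. *TCF12* rose from 2.51 ± 0.472 to 25.4 ± 3.25 CPM (SD, n = 3; log2 fold change 3.33, adjusted p = 2.12e-08, edgeR quasi-likelihood test) and *TCF4* from 0.475 ± 0.157 to 3.15 ± 0.918 CPM (log2 fold change 2.74, adjusted p = 2.09e-05). *TCF3*, the most abundant of them in both conditions by CPM, had 128 ± 20.8 CPM in parental and 83.8 ± 4.64 CPM in p85βKR-AA cells, under the fold threshold (log2 fold change -0.61). With the length and GC offsets *TCF12* was at 1.62 and *TCF4* at 1.73, and both were still called.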
